A study of Mus musculus with 6 samples.

Results

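The 3 genes described here encode the parts of corticotropin-releasing hormone (CRH) signalling that can be read in single cells of the mouse olfactory bulb. They are the ligand Crh, the receptor Crhr1 and the binding protein Crhbp. They were taken by name from the 18560 genes of the count table, and all 3 were found. The question was which cells supply the ligand, which hold the receptor, and whether either changed with olfactory experience.

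Olfactory bulbs of wild-type C57BL/6NJ mice aged 14 weeks were dissociated and sequenced as 6 libraries of single cells, 2 for each of 3 groups, each library from a pool of 3 mice. Mice of the naris-occluded group had a plug in the nostril of 1 side, which blocks odor input to the bulb of that side, and those of the trained group learned to discriminate odors, in both cases for 6 weeks. The sample labels give no manipulation for the control group, but the study describes the control tissue both as naive and as the open side of occluded mice. If the latter holds, control and naris-occluded libraries of the same number share mice. The trained mice worked for water while water deprived, so the training cannot be told apart from the deprivation. In every group, male mice made up replicate 1 and female mice replicate 2. Bulb tissue included some cells of the olfactory epithelium, and the libraries come from dissociated cells, so large projection neurons may be sampled differently from small interneurons.

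CRH is a peptide hormone, best known as the hypothalamic signal that drives the pituitary stress axis, that is also released by local neurons in many brain regions. Its receptor Crhr1 couples mainly to the stimulatory G protein and raises cyclic AMP. Crhbp is a secreted protein that binds CRH and keeps it from the receptor. In the bulb, mitral and tufted (M/T) cells are the excitatory output neurons, external plexiform layer (EPL) interneurons and granule cells inhibit them, and granule cells keep being replaced by neurons born in the adult. Crhr1 in granule cells is known from earlier work to take part in the synaptic integration of these adult-born neurons.

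In RefSeq's annotation of the GRCm38.p6 build, Crh lies at chr3:19693401-19695396, Crhr1 at chr11:104130463-104175523 and Crhbp at chr13:95431376-95444831. The promoters of Crhr1 and Crhbp are shown, whose levels are set side by side further on, and that of Crh was not analysed here. Each sequence runs from 250 bases before to 50 bases after the transcription start that RefSeq gives, 5′ to 3′ on the strand of the gene, at chr11:104132531-104132830 on the plus strand for Crhr1 and at chr13:95444782-95445081 on the minus strand for Crhbp. For Crhr1 this start lies inside the span of the gene given above. Capitals mark matches, on either strand, to TATAAA (the TATA box), TGACG (a half-site of the cyclic AMP response element, CGTCA on the other strand), GGGCGG (a GC box) or TAATTA (a core bound by homeodomain factors).
Crhr1 promoter: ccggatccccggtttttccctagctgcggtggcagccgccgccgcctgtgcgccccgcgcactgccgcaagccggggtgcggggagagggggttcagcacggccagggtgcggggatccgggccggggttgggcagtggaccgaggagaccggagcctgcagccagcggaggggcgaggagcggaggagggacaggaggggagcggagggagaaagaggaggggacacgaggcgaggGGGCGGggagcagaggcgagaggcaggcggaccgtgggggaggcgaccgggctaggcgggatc
Crhbp promoter: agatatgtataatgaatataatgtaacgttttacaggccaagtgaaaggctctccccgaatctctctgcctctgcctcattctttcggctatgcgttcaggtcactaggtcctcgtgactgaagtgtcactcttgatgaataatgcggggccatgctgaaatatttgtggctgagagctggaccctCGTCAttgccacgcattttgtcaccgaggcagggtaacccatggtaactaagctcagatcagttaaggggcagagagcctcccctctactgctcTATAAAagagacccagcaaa
The Crhr1 window held 75% G and C, 31 CG pairs and 1 GC box, and had no match to the other motifs. The Crhbp window held 48% G and C, 9 CG pairs, 1 TATA box and 1 cyclic AMP half-site, read as CGTCA. Of the 32851 promoters of the same length, 13.6% held TATAAA, 20.8% TGACG, 35.7% GGGCGG and 5.29% TAATTA, with medians of 52.7% G and C and 7 CG pairs. The Crhr1 and Crhbp windows shared none of the 4 motifs.

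Transcripts were counted as unique molecular identifiers (UMIs), each standing for 1 captured molecule. The 6 libraries held 6705 to 10570 annotated cells and 11841160 to 17065083 UMIs each, with medians of 1028 to 1723.5 UMIs per cell. Of 51426 annotated barcodes, 21746 were neurons in the study's 18 neuronal clusters and 28925 were nonneuronal. The other 755 belong to neuronal clusters of the whole-bulb annotation but lie outside the 18 clusters. Among the annotated cells, 1461 of 49931 barcode sequences occurred in more than 1 library. Levels are counts-per-million (CPM, UMIs of a gene over all UMIs), summed over the cells of a cluster in a library, with the SD over 6 libraries. The clusters rest on these same values, so differences between them are a description with no test.

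Pooled over libraries, Crh UMIs were found mainly in excitatory output neurons. The cluster n17-M/TC-3 had the highest mean of the 18, 186 ± 156 CPM (SD, n = 6), followed by n18-EPL-IN with 138 ± 150 CPM, and these means did not differ beyond their SD. Next came n15-M/TC-1 with a mean of 32.2 CPM, n16-M/TC-2 with 23.8 CPM, n10-GC-4 with 21.0 CPM and n02-PGC-1 with 19.4 CPM, and none of these neighbours differed from the next beyond the larger SD. The other clusters had means under 10 CPM. No Crh UMI was found in the 273 cells of n09-GC-3 or the 237 cells of n12-GC-6, which allows shares of cells with a UMI of up to 1.10% and 1.27%. The limits and intervals given here cover counting error only.

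The label of n17-M/TC-3 was checked on M/T markers. Its means of Cdhr1, a cadherin of M/T cells, Slc17a7, the vesicular glutamate transporter VGLUT1, and Reln, a secreted matrix protein, were 2115, 2038 and 1436 CPM, each the highest of the 18 clusters, and Tbx21 and Eomes, transcription factors of M/T cells, were second highest. In this cluster, 149 of 927 cells (16.1%, 95% exact binomial interval 13.8% to 18.6%) held 289 Crh UMIs. Of these cells 95 had a single UMI, 54 had at least 2 and 13 had at least 5, with up to 14 in a cell. In n18-EPL-IN, 7 of 161 cells held 24 Crh UMIs, and 3 of these cells held 79.2% of them. The label of n18-EPL-IN rests on few UMIs of its defining marker. Its mean of the calcium-binding protein Pvalb was 64.0 ± 67.4 CPM from 10 UMIs, the highest of the 18 clusters, beside the highest Slc32a1, the vesicular GABA transporter, at 1454 CPM, and Slc17a7 at 414 CPM. Crh in n18-EPL-IN was 59.8 and 419 CPM in control replicates 1 and 2, 111 and 0 CPM in the naris-occluded and 178 and 58.3 CPM in the trained replicates. With 16 to 36 cells per library, 1 cell with many UMIs sets such a value, and the mean was 81.4 CPM without control replicate 2.

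Shares of cells were read against cells taken as background. In olfactory sensory neurons (n01-OSNs, median 808.5 UMIs per cell), 0.333% of cells had a Crh UMI, 0.583% a Crhr1 UMI and 0.417% a Crhbp UMI. In nonneuronal cells (median 1645 UMIs) the shares were 0.322%, 0.757% and 0.550%. The nonneuronal clusters pooled here were not uniform. Their highest means were 16.1 CPM of Crhbp in the microglial cluster MicroG3 and 10.1 CPM of Crhr1 in the endothelial cluster EC2. Neither mean differed beyond the larger SD from that of the whole-bulb cluster ranked next. To compare cells of unequal depth, the share expected after thinning every cell to 500 UMIs was computed. It was 9.43% for Crh in n17-M/TC-3 and 3.21% in n18-EPL-IN, against 0.271% in n01-OSNs and 0.112% in nonneuronal cells. Crh in n02-PGC-1 stood between these, with 1.83% of cells (1.11% to 2.85%) before and 0.786% after thinning, and up to 6 UMIs in a cell. In n04-Immature the thinned share was 0.0957%, which is read as background.

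The M/T clusters n15 to n17 held 300 of the 564 Crh UMIs of annotated barcodes, 53.2% (49.0% to 57.4%). This pooled share is weighted by the control libraries, which held the most Crh, and by library it was 55.0% and 63.4% in the control, 56.4% and 34.4% in the naris-occluded and 26.2% and 50% in the trained replicates. Pooled over libraries, granule clusters GC-2 to GC-7 held 7.09%, periglomerular clusters 6.74%, n18-EPL-IN 4.26% and nonneuronal cells 17.2%. Over libraries these shares ran from 0 to 14.8%, 1.71% to 21.3%, 0 to 16.7% and 14.9% to 25% in the same order, so the order of these cell classes differed between libraries. The nonneuronal share came from many cells, 97 UMIs in 93 of 28925 cells, at a mean of 1.72 CPM.

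**Figure D1:**
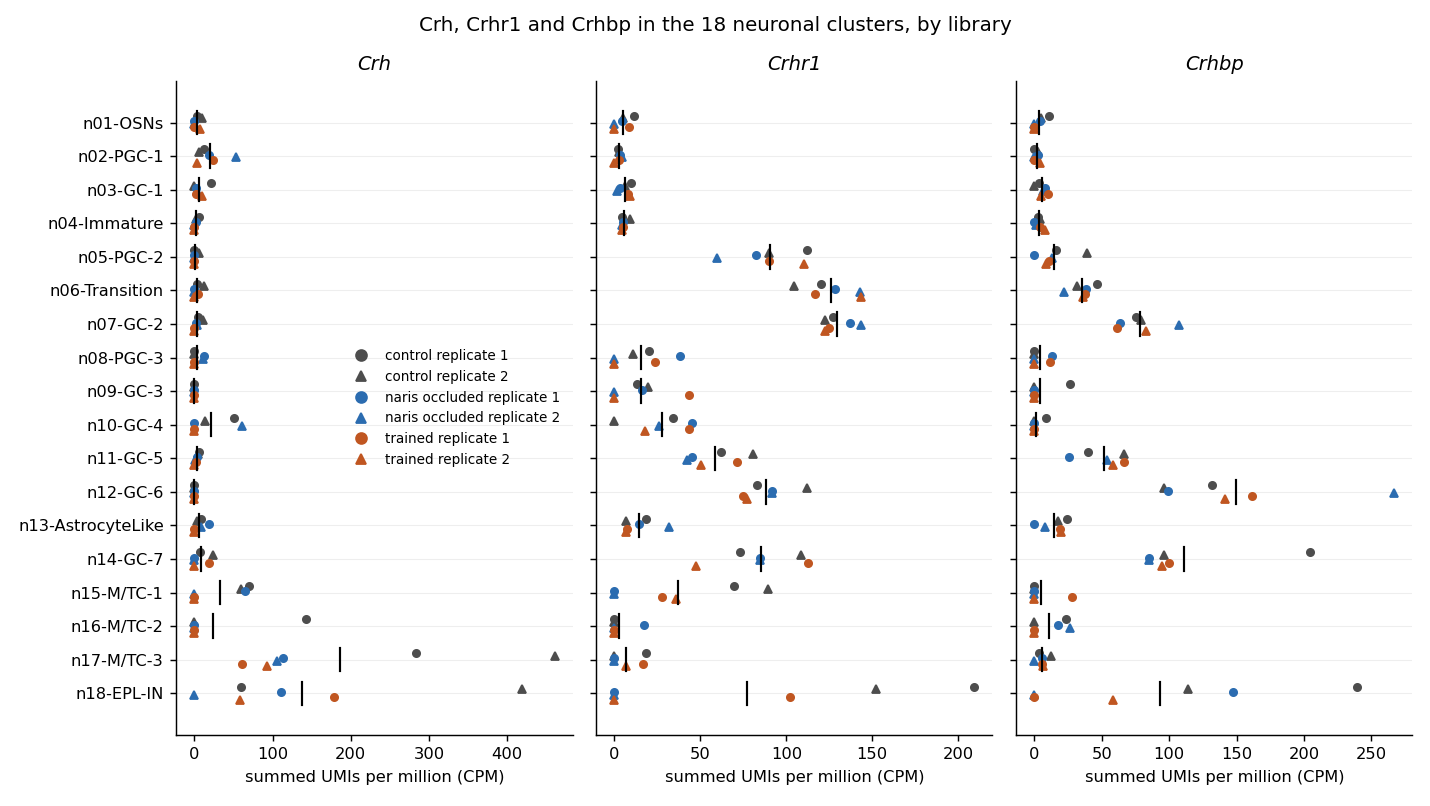
Crh (left), Crhr1 (middle) and Crhbp (right) in the 18 neuronal clusters (rows). The x axis is summed UMIs as counts-per-million (CPM), each point is a library (colour for the group, circle for replicate 1, triangle for replicate 2) and the black bar is the mean of 6 libraries. Crh is highest in n17-M/TC-3, with the control libraries at 284 and 461 CPM, Crhr1 in n07-GC-2 and n06-Transition, and Crhbp in n12-GC-6.

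Within n17-M/TC-3, the cells with a Crh UMI had more transcripts of 3 of the 5 M/T markers. Slc17a7 was 2911 ± 375 CPM in cells with a Crh UMI and 1813 ± 180 CPM in the others, and higher in 6 of 6 libraries. Cdhr1 was 2903 against 1907 CPM and Reln 1756 against 1353 CPM, each higher in 6 of 6 libraries. The M/T transcription factors went the other way, with Eomes at 117 against 180 CPM and lower in 5 of 6 libraries, and Tbx21 at 19.8 against 22.1 CPM and lower in 4 of 6. Gad1, which makes GABA, was 255 against 268 CPM and split 3 to 3, and Cck, a peptide precursor abundant in tufted cells, was 2822 against 2655 CPM and also split 3 to 3. Cells with a Crh UMI had a median of 992 UMIs and the others 838.5. The cluster also mixes cells of the whole-bulb clusters N14 and N15, which are described with the comparisons. The part of this mixture in the partner values was not tested. These and the following partner values are a description with no test, since deeper cells more often show any gene.

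Crhr1 was found in inhibitory interneurons, and among the 18 clusters it was highest in n07-GC-2 and n06-Transition. In n07-GC-2, which had the highest Penk (proenkephalin) of the 18 clusters, Crhr1 was 127 and 122 CPM in the control, 137 and 144 CPM in the naris-occluded and 125 and 122 CPM in the trained replicates, 130 ± 8.78 CPM over all. In n06-Transition it was 120 and 104, 128 and 143, and 117 and 144 CPM in the same order, 126 ± 15.4 CPM over all. These clusters did not differ beyond their SD, and n06-Transition stood above the next, n05-PGC-2, by 35.1 CPM in 6 of 6 libraries, beyond the larger SD of 19.4 CPM. The mean was 90.8 ± 19.4 CPM in n05-PGC-2, close to 88.4 ± 13.5 CPM in n12-GC-6, 85.2 ± 23.9 CPM in n14-GC-7 and 77.3 ± 91.2 CPM in n18-EPL-IN, and these neighbours did not differ beyond their SD. In n18-EPL-IN, 3 of the 6 libraries, both naris-occluded libraries among them, had no Crhr1 UMI. The granule cluster n11-GC-5 followed with 58.6 ± 15.4 CPM.

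Crhr1 was low in n04-Immature but not in n06-Transition, the clusters with the highest levels of Dcx, a gene of immature neurons. The level was 5.33 ± 1.82 CPM in n04-Immature, the cells with the most immature transcriptome, and 6.21 CPM in the calretinin granule cells n03-GC-1, both near the 4.06 CPM of nonneuronal cells. It was 2.54 CPM in n02-PGC-1. The M/T cluster n17 had 6.95 ± 8.62 CPM, and 0.863% of its cells had a Crhr1 UMI, at the background share. Of the other M/T clusters, n15-M/TC-1 had 37.1 ± 36.4 CPM, with a Crhr1 UMI in 5 of 90 cells, and n16-M/TC-2 had 2.86 CPM. After thinning, the shares of cells with a Crhr1 UMI were 6.10% in n06-Transition, 5.85% in n07-GC-2, 5.26% in n05-PGC-2, 4.29% in n12-GC-6, 4.08% in n14-GC-7 and 2.74% in n11-GC-5, against 0.306% in n01-OSNs. Before thinning, n12-GC-6 had 26.6%, at a median of 3533 UMIs per cell. In n07-GC-2, 373 of 3608 cells held 452 Crhr1 UMIs and 312 of them had a single UMI, so most cells of such a cluster gave no UMI at this depth. Granule clusters GC-2 to GC-7 held 45.6% of the 1749 Crhr1 UMIs, n03, n04 and n06 together 14.9%, periglomerular clusters 5.77% and M/T clusters 0.972%. Nonneuronal cells held 12.9%, and the granule share ran from 35.3% to 58.6% over libraries. Another 16.9% lay in cells of the whole-bulb cluster N11 that are outside the 18 neuronal clusters and are described with the comparisons. Crhr1 in these cells was 168 and 152 CPM in the control, 61.3 and 59.6 CPM in the naris-occluded and 129 and 209 CPM in the trained replicates. The control and trained values lay above those of n07-GC-2 and the naris-occluded values below.

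In n07-GC-2, cells with a Crhr1 UMI had 2160 ± 744 CPM of Npy, the precursor of neuropeptide Y, against 716 ± 185 CPM in the other cells, higher in 6 of 6 libraries. Tpbg, a membrane glycoprotein that marks some granule cells, was 369 against 183 CPM and also higher in 6 of 6. Tac1, the substance P precursor, had 0 UMIs in the 373 cells with and 105 in the 3235 cells without a Crhr1 UMI. Penk was 375 against 456 CPM and lower in 5 of 6 libraries. Gad1 was 1136 against 987 CPM and higher in 6 of 6 libraries. The median depths were 961 and 874 UMIs per cell.

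Crhbp was found in the same kinds of interneuron, with another order of clusters. It was highest in n12-GC-6, the cluster with the highest Gad1, where it was 132 and 95.8 CPM in the control, 98.8 and 267 CPM in the naris-occluded and 161 and 141 CPM in the trained replicates. The mean was 149 ± 62.9 CPM, and naris-occluded replicate 2 stood above the other 5 libraries. Crhbp is on the study's list of genes enriched in this cluster, a list drawn from these cells. Next came n14-GC-7 (111 ± 46.1 CPM), n18-EPL-IN (93.2 ± 93.1 CPM) and n07-GC-2 (78.2 ± 16.5 CPM). None of these means differed from that of the cluster ranked just above it beyond the larger SD. Below them n07-GC-2 stood above n11-GC-5 (51.8 CPM), n11-GC-5 above n06-Transition (35.3 CPM) and n06-Transition above n13-AstrocyteLike (14.7 CPM), each beyond the larger SD. After thinning, 6.44% of n12-GC-6, 5.49% of n14-GC-7 and 2.89% of n07-GC-2 cells had a Crhbp UMI, against 0.224% in n01-OSNs. In n12-GC-6, cells with a Crhbp UMI had 770 CPM of Gad2, a GABA-synthesizing enzyme, against 334 CPM, and 1251 CPM of Npy against 377 CPM, both higher in 6 of 6 libraries. Th, the rate-limiting enzyme of dopamine synthesis, was 133 against 28.1 CPM and higher in 5 of 6 libraries, from 38 and 19 UMIs.

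**Figure D2:**
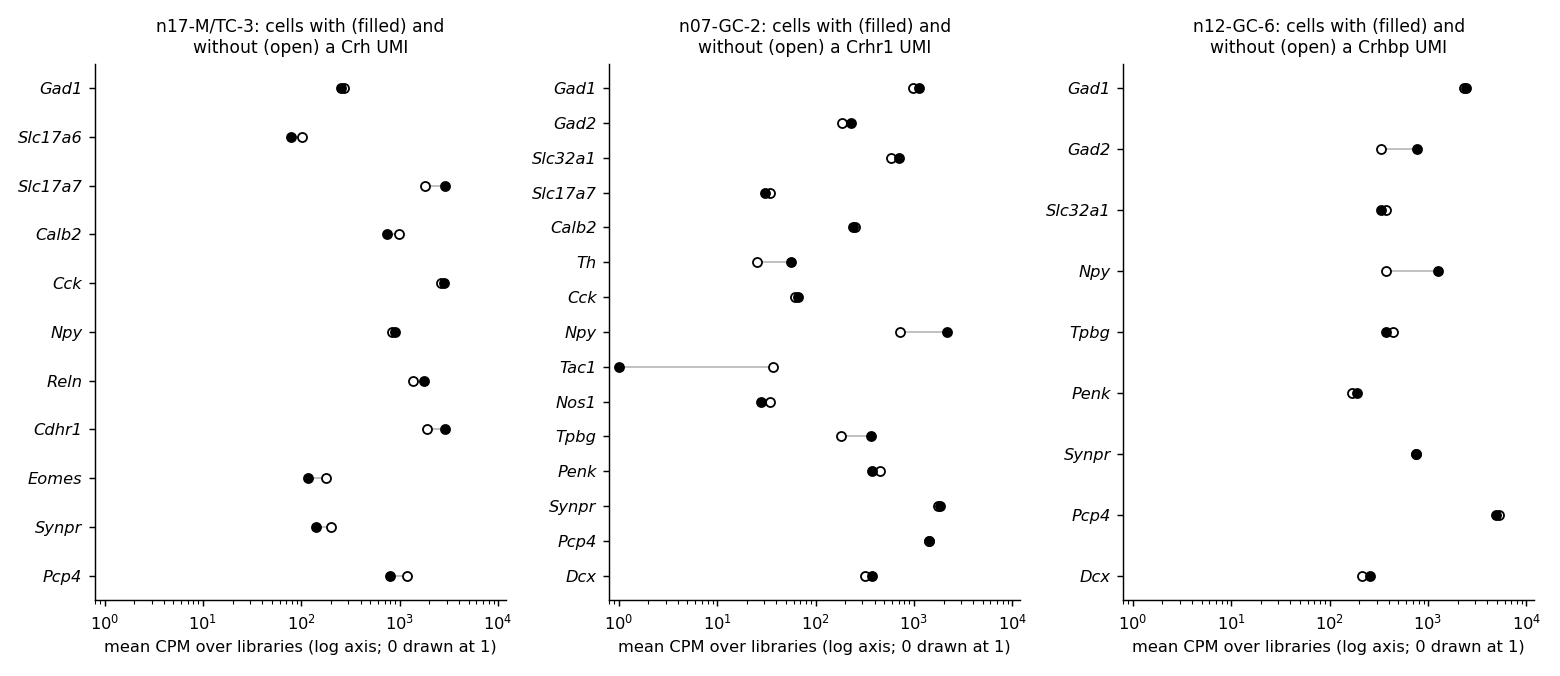
Partner genes (rows) in n17-M/TC-3 cells with or without a Crh UMI (left), n07-GC-2 cells with or without a Crhr1 UMI (middle) and n12-GC-6 cells with or without a Crhbp UMI (right). The x axis is mean CPM over 6 libraries on a log axis, filled points are cells with and open points cells without the UMI, and a mean of 0 is drawn at 1, for listed partners with at least 100 UMIs in the cluster. Slc17a7 and Cdhr1 lie to the right in cells with Crh, and Npy in cells with Crhr1 or Crhbp, whereas Tac1 is at 0 in cells with Crhr1.

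The balance of binding protein and receptor differed along the clusters that hold both. There were 1.68 Crhbp UMIs per Crhr1 UMI in n12-GC-6 (0.857 to 2.91 over libraries), 1.40 in n14-GC-7 (0.889 to 2.80) and 0.885 in n11-GC-5 (0.571 to 1.28). The ratio was 0.580 in n07-GC-2 (0.462 to 0.744), 0.292 in n06-Transition (0.154 to 0.389) and 0.170 in n05-PGC-2 (0 to 0.438). The 6 libraries of n12-GC-6 all lay above those of n07-GC-2, and those of n07-GC-2 above those of n06-Transition. Each captured molecule gives 1 UMI whatever its length, but capture can differ between genes, so the ratio compares clusters and not the molecules of the proteins.

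**Figure D3:**
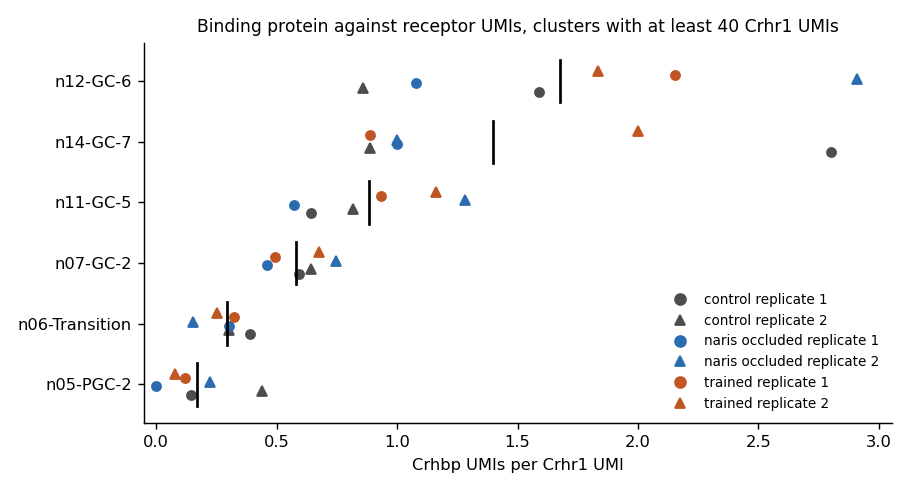
Crhbp UMIs per Crhr1 UMI (x axis) in the neuronal clusters with at least 40 Crhr1 UMIs (rows). Each point is a library (colour for the group, shape for the replicate) and the black bar is the ratio of the UMIs summed over libraries. The bars run from 0.170 in n05-PGC-2 to 1.68 in n12-GC-6.

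Receptor and binding protein were also found in the same cells. Over the 18 clusters, 162 of 1053 neurons with a Crhr1 UMI had a Crhbp UMI, 15.4% (13.3% to 17.7%), against 2.18% of the other neurons. Part of that gap lies between clusters, so it was also read within them. It was 17.4% against 3.74% in n07-GC-2, 23.3% against 5.95% in n11-GC-5, 20.0% against 6.73% in n14-GC-7, 44.4% against 25.3% in n12-GC-6 and 5.15% against 2.64% in n06-Transition. Cells with a Crhr1 UMI were a little deeper in each of these clusters, for example 2305.5 against 2082 UMIs in n11-GC-5. In n05-PGC-2 the shares were 8.11% against 2.64%, and there the cells with a Crhr1 UMI were far deeper, at 3214 against 1529 UMIs. Ligand and receptor met in few cells. Of 261 neurons with a Crh UMI, 8 had a Crhr1 UMI, 3.07% (1.33% to 5.95%), against 4.86% of the other neurons, and in n17-M/TC-3 it was 1 of 149. Most of these Crh cells lie in clusters with little Crhr1. In n11-GC-5, 4 of 9 cells with a Crh UMI had a Crhr1 UMI, 44.4% (13.7% to 78.8%), against 10.1% of the other cells. These Crh cells had a median of 2376 UMIs, against 2108 in the others. In n07-GC-2 it was 1 of 10 Crh cells, 10% against 10.3%. It was 0 of 7 in n06-Transition, 0 of 5 in n14-GC-7 and 0 of 7 in n18-EPL-IN.

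Across the 18 clusters, the log2 levels of Crhr1 and Crhbp had a Pearson r of 0.757, and Crh had −0.218 with Crhr1 and −0.138 with Crhbp. These and the following correlations are over cluster means that share libraries and depth, among 7021 genes that reached 50 CPM in a cluster, and carry no test. The genes most like Crh were Nrn1 (neuritin, r = 0.863), Sdc3 (a syndecan, 0.861), Tenm1 (a teneurin, 0.858), Tspan13 (a tetraspanin, 0.854) and Hapln4 (a link protein of the perineuronal matrix, 0.835). Those most like Crhr1 were Grip2 (a scaffold of glutamate receptors, 0.925), Lamp5 (a membrane protein of GABA neurons, 0.911), Vipr2 (a receptor for VIP and PACAP, 0.889), Lgr5 (an R-spondin receptor, 0.885) and Gabrd (the delta subunit of GABA-A receptors, 0.878). Those most like Crhbp were Vipr2 (0.901), the potassium channel gene Kcnj4 (0.897), Lamp5 (0.892), the receptor phosphatase gene Ptpro (0.873) and Cort (cortistatin, 0.873). Vipr2 and Lamp5 were thus among the 5 genes most like each of Crhr1 and Crhbp.

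Ucn2, the only other ligand measured, and the second receptor were at low levels. Crhr2 had at most 5.81 CPM as a mean in a neuronal cluster, in n10-GC-4, and Ucn2 (urocortin 2) at most 1.83 CPM, in n08-PGC-3. Ucn and Ucn3 were not analysed here. Of a list of 52 genes of the pathway, 47 were in the table. Among enzymes that process peptide precursors, Cpe, the carboxypeptidase that trims them, was at its highest of the 18 clusters in n17-M/TC-3. Its mean was 3308 ± 610 CPM in this cluster, which had the highest Crh mean, and 937 CPM in n07-GC-2. The convertase partner and inhibitor genes Scg5 and Pcsk1n had 512 and 1639 CPM in n17-M/TC-3 and were highest in n18-EPL-IN. Downstream of the receptor, n07-GC-2 had 349 CPM of Gnas, the stimulatory G protein alpha subunit, 105 CPM of Adcy2, a cyclase, 169 CPM of Prkar1a, a regulatory subunit of protein kinase A, and 194 CPM of Plcb1, a phospholipase. Among the 18 clusters, n07-GC-2 ranked 2 for Adcy2 and 5 for Plcb1, but 15 for Gnas and 17 for Prkar1a. The glucocorticoid receptor Nr3c1 and the mineralocorticoid receptor Nr3c2 had 20.1 and 34.1 CPM in n07-GC-2.

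The groups were compared with edgeR's quasi-likelihood test on counts summed per library, in each of the 18 clusters and in 2 sums, the 12 adult-born clusters and all nonneuronal cells. Adjusted p-values (Benjamini-Hochberg) are over all genes tested in a cluster or sum. Of the 20, Crh had enough counts for the test in 3, Crhr1 in 7 and Crhbp in 6. Over the 20, 0.0937% of all tests were called for naris occluded against control, 0.0468% for trained against control and 0.347% for trained against naris occluded. Each pair of contrasts shares a group of libraries, so the 3 contrasts are not independent.

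Crh fell in n17-M/TC-3 in both manipulated groups against the control. The control replicates had 284 and 461 CPM (92 and 109 UMIs in 236 and 175 cells), the naris-occluded replicates 113 and 106 CPM (42 and 21 UMIs in 148 and 118 cells) and the trained replicates 60.9 and 92.5 CPM (11 and 14 UMIs in 154 and 96 cells). Both control libraries lay above the other 4, and the naris-occluded and trained libraries did not overlap. Crh was 3.58-fold lower in naris-occluded libraries (log2 fold change −1.84, SE 0.28, adjusted p = 0.000242), in a cluster where 0.501% of 4389 genes were called. In trained libraries it was 4.86-fold lower (−2.28, SE 0.33, adjusted p = 0.000147), where 0.137% of genes were called. The trained and naris-occluded libraries differed by −0.44 (SE 0.38, adjusted p = 0.832), where 0.159% of genes were called. The values leaving out each library in turn were −2.16 to −1.48 for naris occluded and −2.60 to −1.93 for trained against control. Such a fit leaves 1 library in a group, so only its effect size is given. The smallest p of an exact two-sided permutation test with 2 libraries a group is 0.333. The calls of Crh against the control thus rest on the spread estimated across all genes.

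The call for naris occlusion depended on which cells were counted as this cluster. In the annotation of the whole bulb, most n17-M/TC-3 cells belong to cluster N15, with a median of 760.5 to 880.5 UMIs per cell over libraries, and some deeper cells belong to N14. The N14 cells were 4.66% and 5.14% of the cells of n17-M/TC-3 in the control, 25.7% and 16.1% in the naris-occluded and 7.79% and 11.5% in the trained replicates. They gave 26.5% and 31.9% of the UMIs of n17-M/TC-3 in the control, 67.5% and 50.7% in the naris-occluded and 30.6% and 40.8% in the trained replicates, and their Crh level was lower. In the n17-M/TC-3 cells of N15 alone, Crh was 351 and 611 CPM in the control, 241 and 225 CPM in the naris-occluded and 86.5 and 133 CPM in the trained replicates. In these cells the difference was −1.02 (adjusted p = 0.268) for naris occluded and −2.16 (adjusted p = 2.85e-06) for trained against control. In the whole of cluster N15 it was −1.03 (adjusted p = 0.374) and −2.06 (adjusted p = 0.000329), where 0.164% of genes were called for trained against control. In n17-M/TC-3 cells under 3000 UMIs it was −1.05 (adjusted p = 0.327) and −2.12 (adjusted p = 0.000382). With N14 and N15 summed it was −1.78 (adjusted p = 0.00037) and −2.32, and with n15 to n17 summed −1.82 and −2.46, all called. In N14 alone, where few cells held Crh, it was −1.83 (adjusted p = 0.812) and −2.51 (adjusted p = 0.745). These cell sets were chosen after seeing the data. The part of the mixture of N14 and N15 cells in the result for naris occlusion was not tested beyond these sets.

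The share of n17-M/TC-3 cells with a Crh UMI moved the same way. After thinning to 500 UMIs it was 11.5% and 19.3% in the control, 6.48% and 6.07% in the naris-occluded and 2.82% and 5.69% in the trained replicates. Cells with a Crh UMI held 2.04 and 2.14 UMIs each in the control, 2.10 and 1.75 in the naris-occluded and 1.22 and 1.17 in the trained replicates. Averaging CPM cell by cell, so that a deep cell weighs no more than a shallow one, gave 298 and 559 in the control, 158 and 153 in the naris-occluded and 61.9 and 118 in the trained replicates. These averages and shares include the N14 cells. In the N15 cells alone the average was 315 and 609, 201 and 193, and 72.6 and 128 in the same order, a smaller gap between control and naris-occluded libraries. Fewer Crh cells in the cluster and less Crh RNA per cell cannot be told apart from these sums.

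Other genes of n17-M/TC-3 give the setting. The 5 M/T markers summed to 6208 and 6603, 5041 and 5632, and 5917 and 5323 CPM in the same order, and none of those tested passed in either contrast with the control, Slc17a7 with −0.54 (adjusted p = 0.302) and Cdhr1 with −0.42 (adjusted p = 0.451) for naris occluded against control. Eomes differed by 0.76 in that contrast (adjusted p = 0.248) and was 295 and 217 CPM in the naris-occluded against 160 and 123 CPM in the control replicates. Of the 5 genes most like Crh across clusters, Hapln4 fell in naris-occluded libraries (−1.39, adjusted p = 0.0236), and Nrn1, Sdc3, Tenm1 and Tspan13 were between −0.82 and −0.24 and did not pass. In all, 18 genes were lower and 4 higher with naris occlusion, and 5 lower and 1 higher with training, and 3 were called in both. They were Crh, Fabp7 (a fatty acid binding protein of glia and progenitors) and Gpr37l1 (a receptor of astrocytes), the last 2 named after their values were seen. S100a5, a calcium-binding protein gene, had the smallest adjusted p with naris occlusion, where it fell (−2.15, adjusted p = 4.83e-05), and Fos, an immediate-early gene of neuronal activity, fell too (−2.27, adjusted p = 0.0408). With training they differed by −0.44 (adjusted p = 0.980) and 0.08 (adjusted p = 0.990), and both were picked after their values were seen. The inhibitory marker Gad1 was 296 and 203 CPM in the control, 132 and 136 CPM in the naris-occluded and 288 and 509 CPM in the trained replicates, beside Slc32a1 at 29.5 to 111 CPM over libraries. For Gad1, trained libraries lay above naris-occluded ones by 1.65 (adjusted p = 0.00254). The part of RNA from inhibitory neurons in the Crh result was not tested. The 3 astrocyte markers summed to 253 and 283, 172 and 227, and 188 and 251 CPM, and the part of glial RNA was not tested. Of the sensory neuron markers, Omp was 46.2 and 38.0, 26.9 and 20.2, and 27.7 and 13.2 CPM. Gng13 was 749 and 676, 349 and 515, and 1163 and 370 CPM in the same order. The part of RNA from sensory neurons in the values of S100a5 and Crh was not tested. The red blood cell markers stood apart in control replicate 2, at 1120 CPM against 49.9 to 177 CPM in the other libraries.

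**Figure D4:**
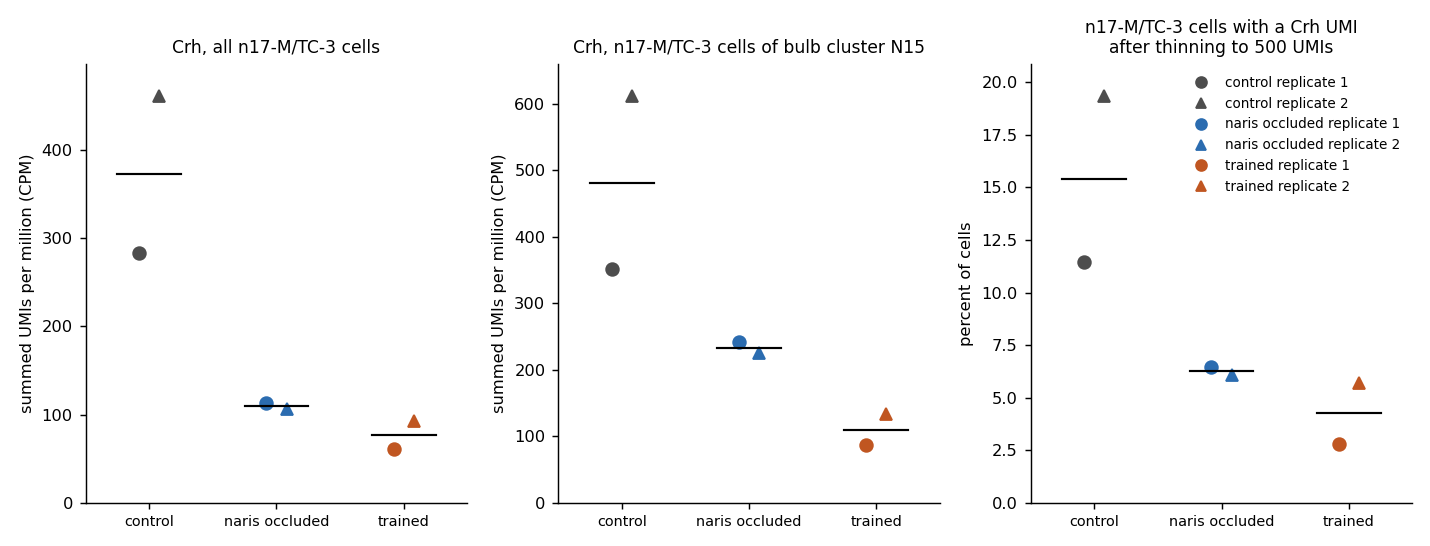
Crh in n17-M/TC-3 by group. The panels give CPM over all cells of the cluster (left), CPM over its cells that belong to whole-bulb cluster N15 (middle) and the percent of cells with a Crh UMI expected after thinning to 500 UMIs (right), each point being a library and each bar the mean of 2. Both control libraries lie above the naris-occluded and trained libraries in each panel, and the gap to the naris-occluded libraries is smaller in the middle panel.

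In nonneuronal cells, where Crh is at the background, it had the same order of groups at a far lower level. It was 2.75 and 3.02 CPM in the control, 1.21 and 1.54 CPM in the naris-occluded and 0.888 and 0.930 CPM in the trained replicates. The differences were −1.07 (adjusted p = 1.00) and −1.65 (adjusted p = 0.422) and did not pass. In the sum of adult-born neurons they were −0.66 (adjusted p = 0.797) and −1.60 (adjusted p = 0.326). Single libraries moved these values. The first was −0.37 without control replicate 1, −0.32 without naris-occluded replicate 1 and −1.09 without naris-occluded replicate 2. The second was −2.97 without trained replicate 1 and −1.01 without trained replicate 2.

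Crhr1 did not pass edgeR's test in any of the 7 clusters and sums, in any of the 3 contrasts. DESeq2 called none of those for which it gave an adjusted p, which were all but 1, nonneuronal cells in trained against naris occluded. At an unadjusted p under 0.05 there were 2 of 7, 0 and 1 for naris occluded against control, trained against control and trained against naris occluded, where 4.99%, 6.56% and 10.3% of all tests in these clusters and sums were. The adult-born sum contains 5 of these clusters, so the 7 overlap. In n07-GC-2 the differences were 0.08 (SE 0.20), −0.05 (SE 0.19) and −0.14 (SE 0.19) in this order. The largest in a cluster was in n11-GC-5, −0.69 (SE 0.26, adjusted p = 0.983) for naris occluded against control, with 62.0 and 80.9 CPM in the control and 45.1 and 42.1 CPM in the naris-occluded replicates. In the sum of adult-born neurons, Crhr1 was 50.3 and 53.9 CPM in the control, 44.7 and 32.1 CPM in the naris-occluded and 59.4 and 49.7 CPM in the trained replicates. Trained libraries lay above naris-occluded ones by 0.55 (SE 0.16, adjusted p = 0.0954). With the replicate number as a block, since same-numbered libraries, which are also of 1 sex, deviated together in this sum, the adjusted p was 0.0307, in a fit that called 3.17% of genes. Without naris-occluded replicate 1 the difference was 0.79, and without naris-occluded replicate 2 it was 0.34. The naris-occluded libraries were 0.48 below the control (adjusted p = 0.460).

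These sums mix clusters of unequal Crhr1. The 6 clusters with the most receptor among adult-born neurons (n05, n06, n07, n11, n12 and n14) made up 53.7% and 58.4% of adult-born cells in the control, 48.5% and 37.0% in the naris-occluded and 61.7% and 59.8% in the trained replicates. Within these 6, Crhr1 was 97.5 and 103 CPM, 94.6 and 80.0 CPM, and 101 and 98.3 CPM in the same order, so trained replicates lay above naris-occluded ones by less than in the whole sum. The part of the makeup of the sum in its difference was not tested further.

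In the annotation of the whole bulb, Crhr1 had enough counts in 6 clusters and passed in 1 of them, N11. For naris occluded against control, the other 5 (N8, N9, N10, N12 and N16) differed by −0.99 to 0.22 (adjusted p from 0.967 to 0.999), with N8 and N9 above 0. N11 held 951 cells, 660 of them outside the 18 neuronal clusters, and 16.9% of all Crhr1 UMIs were in those 660. Crhr1 in N11 was 164 and 137 CPM in the control, 60.4 and 60.3 CPM in the naris-occluded and 122 and 200 CPM in the trained replicates, so the naris-occluded libraries stood below the other 4. In a test of this cluster, added after seeing the data, Crhr1 fell with naris occlusion (−1.33, SE 0.28, adjusted p = 0.0136), where 0.512% of 8586 genes were called, and was higher in trained than in naris-occluded libraries (1.35, SE 0.27, adjusted p = 0.00111), where 7.14% were called. Trained and control libraries differed by 0.02 (adjusted p = 0.982). In the same test Crhbp differed by −1.33 (adjusted p = 0.307) for naris occluded against control and did not pass. It differed by 0.84 (adjusted p = 0.324) for trained against naris occluded and by −0.49 (adjusted p = 0.696) for trained against control. N11 carries neuronal genes, Meis2 among them, together with transcripts of endothelial cells. The 2 endothelial markers Cldn5, a tight junction protein, and Slco1c1, a thyroxine transporter, summed to 2190 and 2199, 3605 and 2490, and 1198 and 1207 CPM in the order of the groups above. Gad1 was 805 and 824, 553 and 670, and 796 and 1016 CPM. Slc32a1 was 243 and 227, 160 and 149, and 248 and 211 CPM, and Meis2 was 1594 and 1627, 1307 and 1351, and 1618 and 2188 CPM. The hemoglobin transcript Hbb-bs was 3328 CPM in control replicate 2 and 33.3 to 196 CPM in the other libraries. Endothelial transcripts were highest in the naris-occluded and lowest in the trained libraries, Gad1, Slc32a1 and Meis2 were lowest in the naris-occluded libraries, and the part of endothelial RNA or of the share of neuronal RNA in the result was not tested.

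**Figure D5:**
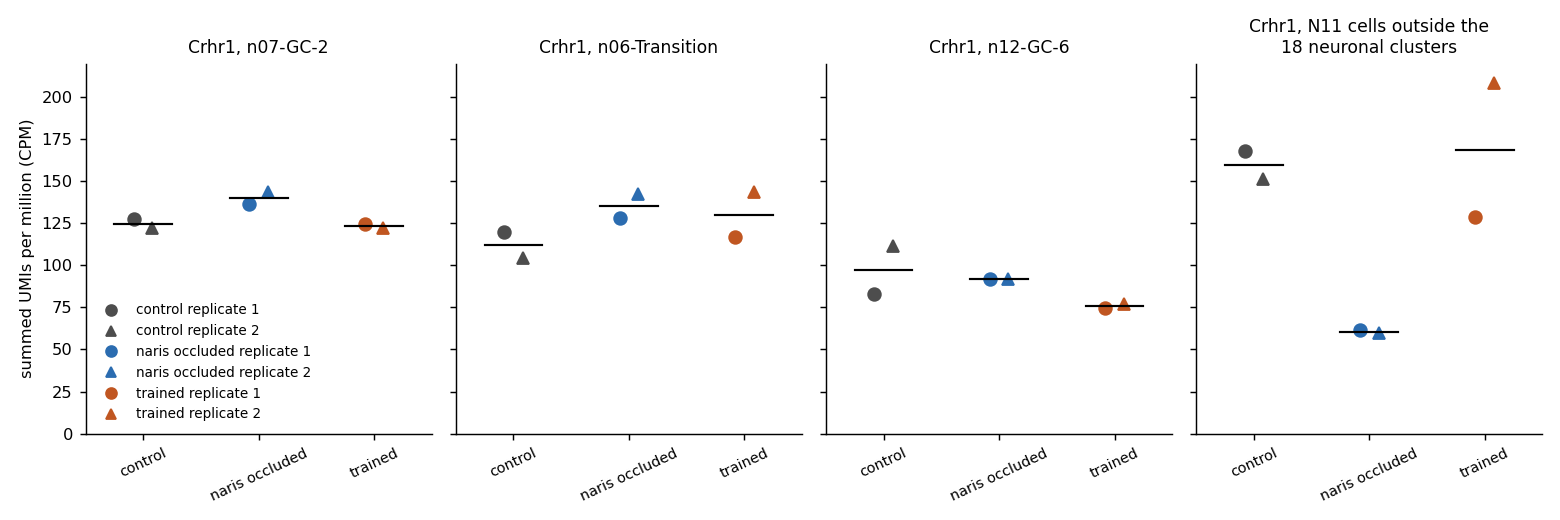
Crhr1 by group in n07-GC-2, n06-Transition and n12-GC-6 and in the N11 cells outside the 18 neuronal clusters (panels, left to right). The y axis is summed UMIs as counts-per-million (CPM), each point is a library and each bar the mean of 2. The groups lie close together in the first 3 panels, whereas the naris-occluded libraries lie at 61.3 and 59.6 CPM and the other 4 at 129 CPM or above in the last.

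Crhbp did not pass edgeR's test in any of its 6 clusters and sums, in any contrast, and DESeq2 called none where it gave an adjusted p, which was missing for nonneuronal cells in both contrasts of the trained group. At an unadjusted p under 0.05 there were 1, 0 and 3 of 6, where 5.1%, 6.78% and 10.6% of all tests in these clusters and sums were, and the adult-born sum contains 4 of the clusters. In n12-GC-6 it was 0.55 higher with naris occlusion (SE 0.35, adjusted p = 0.983) and −0.31 without naris-occluded replicate 2, so this difference rests on that library. In n07-GC-2 the differences lay between −0.15 and −0.04. In the sum of adult-born neurons Crhbp was 0.55 higher in trained than in naris-occluded libraries (SE 0.17, adjusted p = 0.126). Without naris-occluded replicate 1 it was 0.34 and without naris-occluded replicate 2 it was 0.79. Within the 6 receptor-rich clusters the Crhbp level was 68.4 and 64.1 CPM in the control, 45.9 and 73.5 CPM in the naris-occluded and 64.1 and 64.3 CPM in the trained replicates.

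For the pathway list, the 3 members included, 429 tests of 45 genes were made in each contrast over the 20 clusters and sums. Naris occluded against control called 1 of them, Crh itself, and trained against control called 2, Crh and Pam. Over all tests in these clusters and sums, 0.0937% and 0.0468% were called in these contrasts. The Crh calls are those given above. Pam, the enzyme that amidates the end of peptides such as CRH, rose in n17-M/TC-3 of trained mice by 1.23 (SE 0.27, adjusted p = 0.0401), where Crh fell. Trained against naris occluded called 2, both in the sum of adult-born neurons. Over the 20 clusters and sums, 0.347% of all tests were called in this contrast. In the adult-born sum alone, the fit with the replicate block called 3.17% of genes, and the share without the block is not given here. Adcy2 was 0.82 higher (SE 0.19, adjusted p = 0.0328) and Pcsk1, a convertase that cuts peptide precursors, 1.14 higher (SE 0.24, adjusted p = 0.0239) in trained libraries. The makeup of this sum differed between the groups, as given above for Crhr1, and its part in these differences was not tested. The median log2 fold changes of the list were −0.07, 0.00 and 0.07 in the 3 contrasts, against 0.00 over all tests in each.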

How the data were processed

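Single cells were captured with Chromium Single Cell 3′ v2 chemistry. The authors used Cell Ranger 2.0.0 and mm10, as the submitters' processing notes name them, to count UMIs for each gene in each barcode, and the deposited counts are not normalized. Clusters and libraries came from the authors' 2 deposited annotations, made with Seurat 2.2.1, which also give the deposited fraction of mitochondrial UMIs per cell (library medians 9.25% to 14.4%). The authors removed doublets, and no further filter was applied. The prefixes of the trained cell names are reversed against the library column, which was used.

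Counts were summed per library and cluster, scaled to CPM, and tested with edgeR 4.0.16 (quasi-likelihood, TMM factors, filterByExpr, Benjamini-Hochberg at 0.05) in R 4.3.3. CPM values in the text are untested sums without TMM. The edgeR fit was tested on counts simulated for n07-GC-2 and n17-M/TC-3, with the same fixed spread for every gene. DESeq2 1.42.0, a replicate block, other scalings, filters and depths, and each library left out were alternatives. Same-numbered libraries deviated together in the adult-born sum (correlations 0.193 to 0.265) and less in n17-M/TC-3 (0.0446 to 0.122) and N11 (0.108 to 0.160). The replicate block was not fitted in N11. The replicates of a group are separate pools, which the labels number, a male and a female pool. The spread behind the p-values is that between these pools, estimated with help from all genes, and it includes any difference between the sexes. If the control tissue is the open side of occluded mice, control and naris-occluded pools are not separate from each other.

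The 3 genes and all lists were chosen with earlier results of these data known. Named are the members, pathway genes called in a comparison or among the 3 highest of their role in n07-GC-2, and the 5 genes most like each member. Others were named after their values were seen. Promoters came from a table made from RefSeq (GRCm38.p6), in which 2 of the 3 members were matched. The authors' log-normalized table was not used.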

Additional observations from a re-analysis of the deposited data

Results flagged for a closer look

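Some UMIs of the 3 genes lay in barcodes that no comparison over the 18 clusters used. The N11 cells outside the 18 neuronal clusters held 296 Crhr1 UMIs and 76 Crhbp UMIs, more than most of the 18 clusters. The 1123 barcodes without any annotation held 115 Crhr1 UMIs, 47 Crhbp UMIs and 11 Crh UMIs. These barcodes have no library in the annotation, and none was assigned to a group. The largest of them had 155007 UMIs, with 34 of Crhr1 and 13 of Crhbp.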

How the results depend on the processing

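The fall of Crh in n17-M/TC-3 kept its direction under all 17 alternatives. It ran from −2.16 to −1.02 for naris occluded (highest adjusted p 0.374) and from −2.60 to −1.93 for trained against control (highest adjusted p 0.0166). With the replicate block the values were −1.78 (adjusted p = 6.57e-06) and −2.27 (adjusted p = 6.49e-07). The naris-occluded difference did not pass in N15 (−1.03), in n17-M/TC-3 cells of N15 (−1.02) or in those under 3000 UMIs (−1.05). The numbers of calls over the members were 1, 1 and 0 for naris occluded against control, trained against control and trained against naris occluded. With whole-bulb clusters the first was also 1, but it was Crhr1 in N11 and not Crh. DESeq2 gave 0 for the first, since its adjusted p for Crh was missing. Without a filter on low counts the second was 2, with Crh in adult-born neurons added, and the third 2, Crhr1 and Crhbp in adult-born neurons. The third was 1 with the replicate block and 1 with whole-bulb clusters, in each case Crhr1, whose values without single naris-occluded libraries are given above. For trained against control in adult-born neurons, Crhr1 turned to −0.031 in cells with at least 1000 UMIs and ranged from −0.092 (without trained replicate 1) to 0.21 when leaving out each library. For naris occluded against control in n12-GC-6, Crhbp ranged from −0.31 to 1.18. The Crh level in n17-M/TC-3 was 372 CPM in control libraries only, and the Crhr1 level in n07-GC-2 was 156 CPM without mitochondrial genes in the total. The causes of these shifts were not tested, except that the control level follows from leaving out the other groups. Few UMIs of a member in a cluster limit what could be tested, and Crh had enough counts in 3 of 20 clusters and sums.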
